A study of Mus musculus with 10 samples.

Results

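The 10 genes described here encode the light-signalling cascade of mouse cones: the opsins *Opn1sw* and *Opn1mw*, the transducin subunits *Gnat2*, *Gnb3* and *Gngt2*, the phosphodiesterase subunits *Pde6c* and *Pde6h*, the channel subunits *Cnga3* and *Cngb3*, and the cone arrestin *Arr3*. They were chosen by symbol, and all 10 were found among the 53974 genes listed in the RNA-seq table. Values are TPM, an abundance corrected for transcript length and given as a share of the library. A filter of at least 1 TPM in at least 3 libraries left 17555 genes for testing, and all 10 cone genes passed it with more than 1 TPM in all 6 libraries. For ATAC-seq, which marks open chromatin, regions and peaks within 1000 bp of either end of these genes were taken.

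Retinal cells were sorted with an antibody to Thy1.2, a surface protein of retinal ganglion cells (RGCs) and also of T cells, 3 days after optic nerve crush (ONC). All mice were C57BL/6, 8 to 10 weeks old, and carried floxed *Arid1a*, a subunit gene of the SWI/SNF chromatin remodelling complex. The group labelled WT (*Arid1a* fl/fl) received AAV2-GFP and the group labelled cKO (*Arid1a* del/del) received AAV2-Cre by intravitreal injection 2 weeks before ONC, so both groups had injected, crushed retinas, and 4 to 5 retinas were pooled per sample. Cre was driven by the general CMV promoter, which does not by itself limit recombination to one cell type. The paper gives a higher titre for AAV2-GFP than for AAV2-Cre, so virus titre and label cannot be told apart. RNA-seq had 3 libraries per group, and ATAC-seq had 2.

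In a cone, light turns an opsin into an active receptor, the opsin activates the G protein transducin, and transducin releases the catalytic subunit of phosphodiesterase 6 (PDE6) from its inhibitory gamma subunit. PDE6 then lowers cyclic GMP, and the cyclic nucleotide-gated (CNG) channels close. Arrestin binds the phosphorylated opsin and ends its activity. Rods use the same steps with their own versions of most subunits, and both cell types lie in the outer retina, far from the ganglion cell layer.

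The regulatory sequence just before the annotated start is shown for 4 of these genes, because they are the ones in the promoter table among the 6 cone genes with the highest mean RNA level. Sequences are from RefSeq on GRCm38.p6, whose promoter table held 6 of the 10 genes in 7 entries. Each line gives the 150 bases that end 1 base before the start, 5′ to 3′ on the strand of the gene. Capitals mark TAATC (also TAATCC, which contains it, the core bound by the photoreceptor factor CRX), AGGTCA (the core bound by nuclear receptors such as RORB) and TATAAA (the TATA box), on either strand.
Opn1sw, chr6:29380514-29380663, minus strand: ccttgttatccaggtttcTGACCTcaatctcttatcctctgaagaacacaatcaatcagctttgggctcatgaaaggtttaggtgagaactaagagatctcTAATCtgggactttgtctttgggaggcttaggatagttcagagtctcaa
Opn1mw, chrX:74127316-74127465, plus strand: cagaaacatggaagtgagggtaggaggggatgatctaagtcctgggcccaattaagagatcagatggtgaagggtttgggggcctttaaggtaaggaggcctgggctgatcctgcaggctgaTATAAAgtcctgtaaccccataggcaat
Gnat2, chr3:108092916-108093065, plus strand: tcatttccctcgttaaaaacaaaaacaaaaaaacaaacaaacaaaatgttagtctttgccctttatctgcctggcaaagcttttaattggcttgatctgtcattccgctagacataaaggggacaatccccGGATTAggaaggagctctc
Arr3, chrX:100605347-100605496, plus strand: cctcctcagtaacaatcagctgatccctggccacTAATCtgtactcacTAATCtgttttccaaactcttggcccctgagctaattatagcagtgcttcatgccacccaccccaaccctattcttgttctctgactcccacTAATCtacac

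The letters were searched on both strands in the 250 bases before each start. TAATC was found for 3 of the 6 genes, *Opn1sw*, *Gnat2* and *Arr3*, and in 19.8% of all 32851 promoter entries. In *Arr3* it occurred 3 times, beginning 116, 102 and 10 bases before the start. TAATCC was found for *Gnat2* alone, as GGATTA beginning 19 bases before the start, and in 6.25% of all entries. AGGTCA was found for *Opn1sw* alone, beginning 202 bases before the start and, on the other strand, 132 bases before it, and in 14.02% of all entries. TATAAA was found in *Opn1mw*, 28 bases before the start, and in 1 of the 2 entries of *Cnga3*, and in 12.4% of all entries. None of these 4 was found in the entry of *Pde6h*. The letters were chosen after the sequences had been seen, and a match is a description of the sequence alone.

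The targeted gene was looked at first. *Arid1a* lay between 11.7 and 18.8 TPM under the WT label and between 18.8 and 27.9 TPM under the cKO label, a log2 fold change of 0.66 (limma, adjusted p = 0.274). The RNA level did not drop with the cKO label, and the directions below rest on the labels. By immunostaining of retinal sections, the paper reported less ARID1A protein in RGCs of mice given AAV2-Cre. Protein was not measured in these libraries, and a TPM per gene does not show whether part of a transcript is missing. Several markers of RGCs were low: *Rbpms* lay between 1.82 and 6.43 TPM, *Slc17a6* between 0.593 and 1.57 TPM, and *Pou4f2* was listed at 0 in 5 of the 6 libraries. *Nefl* lay between 5.47 and 20.6 TPM and *Elavl4* between 8.77 and 28.3 TPM. *Thy1*, the sorted antigen, lay between 51.9 and 88.5 TPM under the WT label and between 94.4 and 129 TPM under the cKO label, and 10 RGC markers summed to between 149 and 203 TPM and between 235 and 271 TPM. *Thy1* and *Isl1*, which bipolar and amacrine cells also express, made up most of these sums. Of the 8 RGC markers tested 5 had a fold change above 0, where 61.1% of all genes did. The 3 markers *Thy1*, *Elavl4* and *Stmn2* were higher at an unadjusted p under 0.05 in limma, beside 11.9% of all genes. Their log2 fold changes were 0.71, 0.87 and 0.97. By the same measure 0 of the 8 were lower, beside 6.45% of all genes. *Rbpms*, *Pou4f1* and *Sncg* had log2 fold changes of -0.41, -0.64 and -0.83. Over all genes tested the fold changes had a median of 0.16 on the log2 scale, which became 0.01 when each library was scaled by its median of ratios, and differences are to be read against that shift. In bulk libraries more cells of a type and more RNA per cell cannot be told apart.

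The 10 cone genes together took up between 0.298% and 0.377% of each WT library's summed TPM and between 0.522% and 0.845% of each cKO library's. All 10 had a higher mean in the libraries labelled cKO, with log2 fold changes of TPM + 1 from 0.73 to 2.04 and a median of 0.96, where 61.1% of all genes tested had a fold change above 0. None passed an adjusted p under 0.05 in limma (0.0057% of all genes did so in the higher direction), and the adjusted p of the 10 ran from 0.124 to 0.310. At an unadjusted p under 0.05, 8 of the 10 were higher, beside 11.9% of all genes tested, and 0 were lower, beside 6.45%. Leaving out 1 library gave 5 of 10 without WT replicate 1 (beside 10.1% of all genes tested), without cKO replicate 2 (5.76%) and without cKO replicate 3 (13.4%). With the replicate number as a block, a pairing read from these data and not from the labels, it was 10 of 10, beside 13.4% of all genes tested. In 8 of the 10 the lowest cKO value exceeded the highest WT value, which held for 18.7% of all genes tested. The reverse held for 0 of the 10 and for 7.18% of all genes tested. With 3 libraries against 3, an exact two-sided permutation test gives no p under 0.1.

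**Figure D1:**
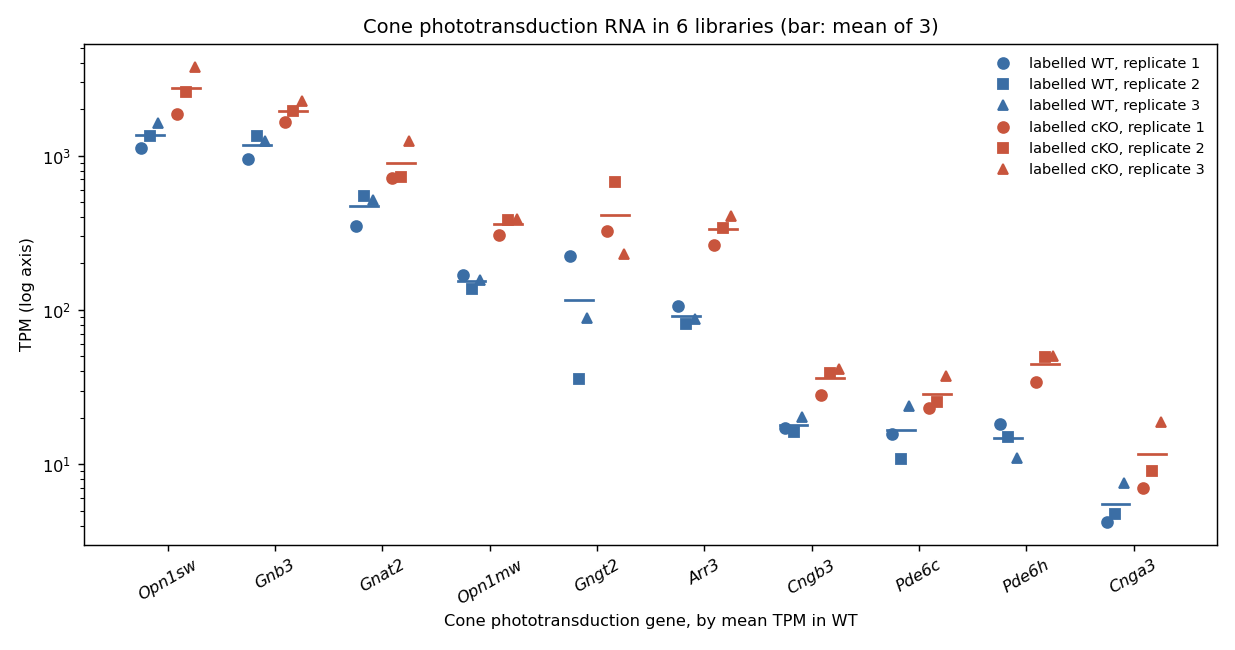
TPM (log axis) of the 10 cone genes in each of the 6 RNA-seq libraries, with WT labels in blue, cKO labels in red, a marker per replicate and a bar at the mean of 3. Levels ran from 4.23 TPM for *Cnga3* to 3765 TPM for *Opn1sw*, and the colours overlap only for *Pde6c* and *Cnga3*.

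The opsins decide to which wavelengths a cone responds. *Opn1sw*, the short-wavelength (S) opsin, stood at 1117, 1339 and 1623 TPM in WT replicates 1 to 3 and at 1848, 2564 and 3765 TPM in cKO replicates 1 to 3. All 3 cKO libraries were above the WT libraries, and the cKO libraries spread more widely, with the highest 2.04 times the lowest. The means were 1359 ± 254 TPM (SD, n = 3) and 2726 ± 969 TPM (SD, n = 3), a log2 fold change of 0.96 and a standard error of 0.32 (limma, adjusted p = 0.192). *Opn1mw*, the medium-wavelength (M) opsin, stood at 168, 136 and 155 TPM in WT and at 306, 381 and 389 TPM in cKO, with a log2 fold change of 1.22 and a standard error of 0.20 (limma, adjusted p = 0.124). It was the steadiest member, the highest library being 1.24 times the lowest in WT and 1.27 times in cKO, and the groups did not overlap.

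The ratio of *Opn1sw* to *Opn1mw* is a measure within a library that no scaling between libraries can move. It was 6.63, 9.84 and 10.4 in WT and 6.03, 6.73 and 9.69 in cKO. The groups overlapped, and the means of 8.97 ± 2.05 and 7.48 ± 1.94 (SD, n = 3 each) differed by less than the spread between replicates (exact two-sided permutation test on log2 ratios, p = 0.3). The ratio was lower under the cKO label in 3 of 3 same-numbered pairs, a difference within pairs that was not tested. These pairs were read from the data and not from the labels.

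Transducin joins an alpha subunit, which binds GTP, to a beta and gamma pair. *Gnat2*, the cone alpha subunit, stood at 351, 547 and 514 TPM in WT and at 717, 732 and 1248 TPM in cKO. The groups did not overlap, although 2 of the cKO libraries lay close together and the other stood higher (log2 fold change 0.91 with a standard error of 0.31, limma, adjusted p = 0.193). *Gnb3*, the cone beta subunit, which ON bipolar cells also express, stood at 951, 1340 and 1242 TPM in WT and at 1658, 1942 and 2262 TPM in cKO. Its log2 fold change of 0.73 and a standard error of 0.25 (limma, adjusted p = 0.192) was the lowest of the 10, with no overlap between the groups.

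*Gngt2*, the cone gamma subunit, was the least even member. It stood at 224, 35.5 and 88.1 TPM in WT and at 324, 674 and 231 TPM in cKO, so that the highest library was 6.32 times the lowest in WT and 2.91 times in cKO. Its log2 fold change of 2.04 was the largest of the 10, and so was its standard error of 0.69 (adjusted p = 0.192 from limma). The highest WT value and the lowest cKO value almost met. The fold change was 2.70 on the log2 scale without WT replicate 1 and 1.39 without WT replicate 2. Over the 6 libraries *Gngt2* had the lowest Pearson's r of the 10 with the mean of the standardised member values, 0.70, while the other 9 lay between 0.87 and 0.99; this mean includes the gene itself, and r is given as a description.

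In PDE6 the catalytic subunit cleaves cyclic GMP and the gamma subunit holds it in check. *Pde6c*, the cone catalytic subunit, stood at 15.7, 10.8 and 23.9 TPM in WT and at 23.1, 25.2 and 37.2 TPM in cKO. WT replicate 3 lay above cKO replicate 1, so the groups overlapped (exact two-sided permutation test, p = 0.2), with a log2 fold change of 0.77 (95% interval -0.05 to 1.59). Within same-numbered pairs it was higher under the cKO label in 3 of 3, as was every cone gene, and the share of all genes was not counted. With the replicate block limma gave an unadjusted p of 0.0221 in place of 0.0615 (adjusted p = 0.164). The pairing was read from these same data and not from the labels, so neither result is separate support. *Pde6h*, the cone gamma subunit, stood at 18.2, 15.0 and 10.9 TPM in WT and at 34.3, 49.4 and 50.3 TPM in cKO. The groups were well apart, with a log2 fold change of 1.55 and a standard error of 0.28 (limma, adjusted p = 0.124).

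The CNG channel of cones carries the current that light switches off, with *Cnga3* for the alpha and *Cngb3* for the beta subunit. *Cnga3*, the least abundant member, stood at 4.23, 4.74 and 7.56 TPM in WT and at 6.97, 8.99 and 18.8 TPM in cKO. The groups overlapped, and cKO replicate 3 stood at 2.70 times cKO replicate 1 (log2 fold change 0.87, 95% interval -0.10 to 1.85). It too was higher under the cKO label in 3 of 3 pairs, and the replicate block gave an unadjusted p of 0.0197 in limma in place of 0.0727 (adjusted p = 0.157). For *Cnga3* too the pairing was read from these data, so neither result is separate support. *Cngb3* stood at 17.1, 16.2 and 20.3 TPM in WT and at 28.0, 39.0 and 41.6 TPM in cKO, with no overlap and a log2 fold change of 0.97 and a standard error of 0.25 (limma, adjusted p = 0.140).

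*Arr3*, the cone arrestin, stood at 105, 81.1 and 87.9 TPM in WT and at 263, 341 and 404 TPM in cKO. The lowest cKO library lay far above the highest WT library, and the means were 91.4 ± 12.5 TPM (SD, n = 3) and 336 ± 70.6 TPM (SD, n = 3). The log2 fold change of 1.85 had a standard error of 0.24, and its unadjusted p of 9.51e-05 in limma was the lowest of the 10 (adjusted p = 0.124 over all genes tested).

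Ordered by mean TPM, which can be compared between genes because it is per transcript length, the WT libraries held *Opn1sw*, *Gnb3*, *Gnat2*, *Opn1mw*, *Gngt2*, *Arr3*, *Cngb3*, *Pde6c*, *Pde6h* and *Cnga3*. Neighbours whose libraries overlapped in range were *Opn1sw* and *Gnb3*, then *Opn1mw*, *Gngt2* and *Arr3*, and then *Cngb3*, *Pde6c* and *Pde6h*. The cKO libraries kept *Opn1sw*, *Gnb3* and *Gnat2* at the top and *Cnga3* at the bottom. Between them the same 3 genes of the middle and the same 3 of the lower range again overlapped with their neighbours, with *Gngt2* and *Pde6h* now first in theirs. The opsin, transducin and arrestin genes stood above the PDE6 and channel genes in both groups.

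The cKO libraries also differed among themselves. Replicate 3 held the highest cKO value of 9 of the 10 genes and replicate 1 the lowest of 9, the exception being *Gngt2* in both. The summed TPM of 7 Mueller glia markers, which include the water channel gene *Aqp4* and *Apoe*, was 9057, 16340 and 18247 in WT replicates 1 to 3 and 7525, 7737 and 17380 in cKO replicates 1 to 3. Its part in the cone values was not tested.

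Rod genes are the closest comparison, and 9 rod counterparts of the transducin, PDE6, channel and arrestin genes were examined. *Gnat1*, the rod transducin alpha subunit, stood at 3122, 2501 and 3772 TPM in WT and at 5815, 10206 and 10396 TPM in cKO. Over the 9 genes the log2 fold changes ran from 1.13 to 1.70 with a median of 1.44, beside 0.96 for the cone genes. In all 9 every cKO value exceeded every WT value, which held for 18.7% of all genes tested. The unadjusted p was under 0.05 in limma for all 9, beside 11.9% of all genes tested in the higher direction. None passed an adjusted p under 0.05. The summed TPM of the 8 cone genes other than the opsins, divided by that of the 9 rod genes, was 0.213, 0.328 and 0.209 in WT and 0.208, 0.147 and 0.163 in cKO. All 3 cKO libraries lay below the WT libraries, by a narrow margin between cKO replicate 1 and WT replicate 3 (exact two-sided permutation test on log2 ratios, p = 0.1, the smallest p possible). When *Gnb3*, which other cells also express, and *Gngt2*, which varied most, were left out as well, the ratios overlapped (p = 0.5 in the same exact test). *Gnb1* stayed in the rod sum of both ratios, and whether other cells add to it was not tested.

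**Figure D2:**
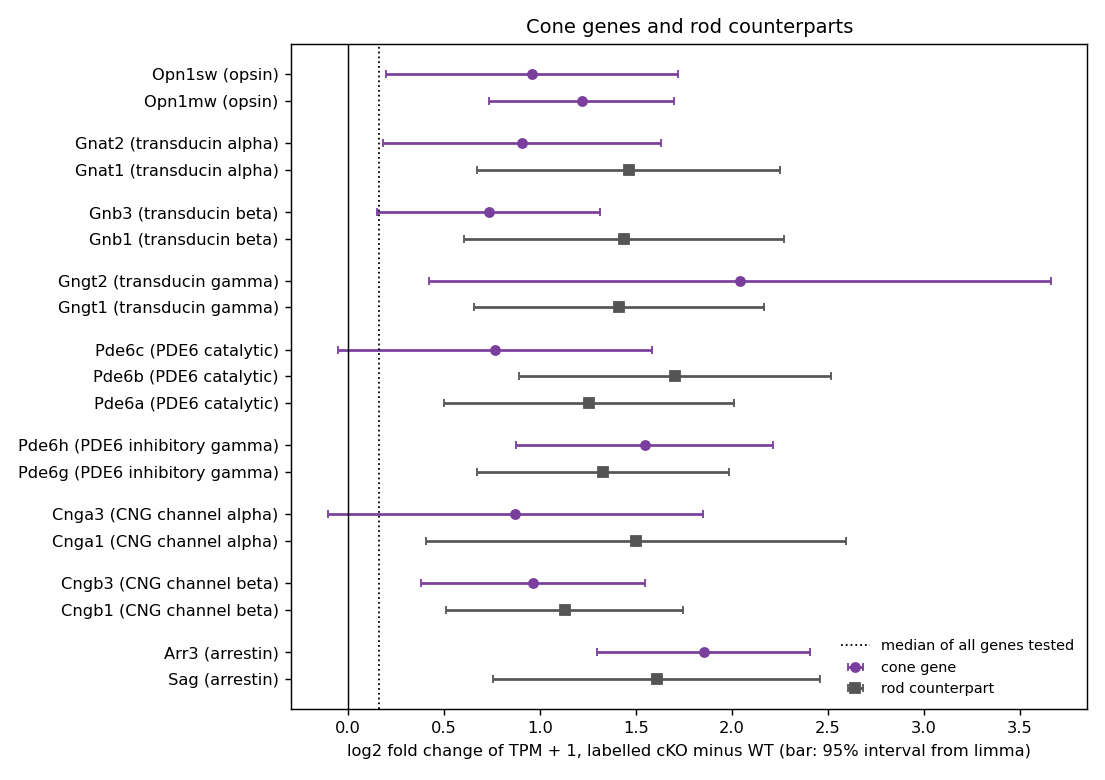
log2 fold change of TPM + 1 (labelled cKO minus labelled WT) with its 95% interval from limma, for each cone gene (purple circles) and 9 rod counterparts (grey squares), grouped by subunit. Every estimate lies to the right of the dotted line at 0.16, the median of all genes tested, and the intervals of *Pde6c* and *Cnga3* reach below 0.

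Subunit by subunit, 9 cone to rod ratios were compared. In 6 pairs the mean log2 ratio was lower in cKO, and in 2 of these the groups did not overlap, *Gnb3* over *Gnb1* and *Pde6c* over *Pde6b*. *Pde6c* over *Pde6b* stood at 0.173 ± 0.0393 in WT and 0.0963 ± 0.0362 in cKO (SD, n = 3 each), a difference in log2 ratio of -0.91. The groups overlapped for *Pde6c* over *Pde6a*, the other rod catalytic subunit. That ratio stood at 0.419 ± 0.132 in WT and 0.296 ± 0.0595 in cKO (SD, n = 3 each), a difference in log2 ratio of -0.47. The ratios that were higher on average were *Gngt2* over *Gngt1*, *Pde6h* over *Pde6g* and *Arr3* over *Sag*, and in each of them the groups overlapped. No pair passed after Benjamini-Hochberg adjustment over the 9 pairs (smallest adjusted p = 0.45 from exact two-sided permutation tests), and no pair could have passed with 3 libraries a group.

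**Figure D3:**
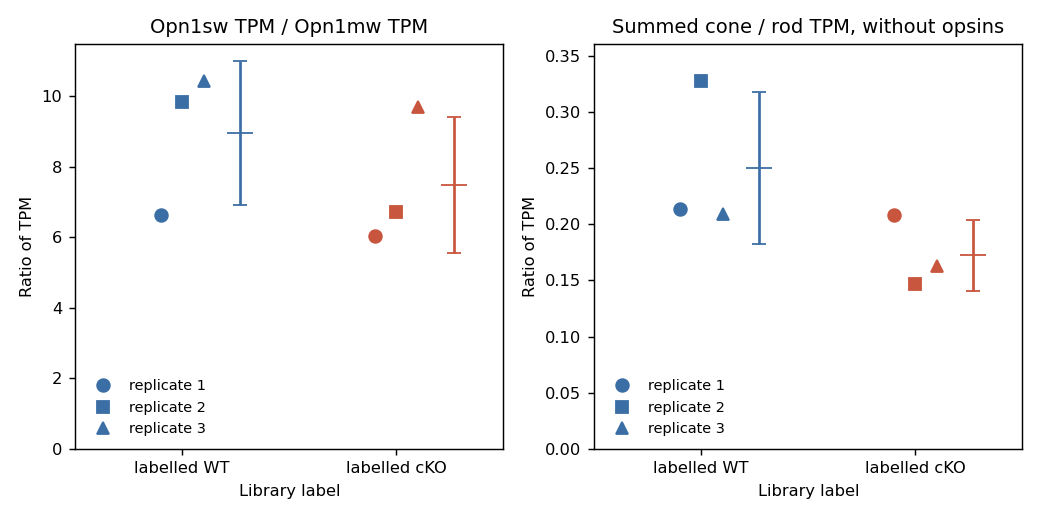
Ratio of *Opn1sw* to *Opn1mw* TPM (left) and of summed cone TPM without the opsins to the summed TPM of 9 rod genes (right) in each library, with a marker per replicate and the mean ± SD beside it. The opsin ratios of both labels overlap, while the cone to rod ratios of the cKO label, 0.147 to 0.208, lie below those of the WT label, 0.209 to 0.328.

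Genes that regulate the cascade, in a list of 20, had log2 fold changes from 0.30 to 2.22 and a median of 1.22. At an unadjusted p under 0.05, 16 of the 20 were higher, beside 11.9% of all genes tested, and none passed an adjusted p under 0.05. *Pdc*, which encodes phosducin, a protein that binds the transducin beta and gamma pair, stood at 192, 160 and 274 TPM in WT and at 840, 1280 and 797 TPM in cKO. *Rcvrn*, the calcium sensor recoverin, had 346 ± 77.4 TPM in WT and 854 ± 246 TPM in cKO (SD, n = 3 each). *Guca1b*, an activator of guanylate cyclase, had 376 ± 84.8 TPM and 987 ± 402 TPM. In *Unc119*, which carries transducin alpha subunits to the outer segment, the groups overlapped, with 137, 375 and 179 TPM in WT and 252, 349 and 365 TPM in cKO.

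Transcription factors of photoreceptors numbered 9, with a median log2 fold change of 0.98. Of these, 6 were higher at an unadjusted p under 0.05, beside 11.9% of all genes tested, and none at an adjusted p under 0.05. *Crx*, needed for the expression of many rod and cone genes, stood at 116, 117 and 135 TPM in WT and at 235, 337 and 316 TPM in cKO. *Nrl*, the factor that sets rod over cone fate, had a log2 fold change of 0.92 (standard error 0.30). The factors that pattern cone opsins, *Thrb* and *Rxrg*, named here outside the rule for named genes, had log2 fold changes of 0.99 and 0.54, and *Rxrg* overlapped between the groups. Of 7 further photoreceptor genes, 5 were higher at an unadjusted p under 0.05, beside 11.9% of all genes tested. Among them was *Kcne2*, a potassium channel subunit gene enriched in cones. It stood at 34.1, 61.7 and 47.3 TPM in WT and at 68.3, 91.1 and 137 TPM in cKO. The groups overlapped in the other two, *Otop3* with a log2 fold change of 0.86 and *Ccdc136* with -0.25.

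Markers of other cells differed between the labels in some lists and overlapped in others. The summed TPM of 8 bipolar markers overlapped, lying between 913 and 1257 in WT and between 1129 and 1902 in cKO. At an unadjusted p under 0.05, 0 of the 8 were higher, beside 11.9% of all genes tested, and 0 were lower, beside 6.45%. The summed TPM of 6 amacrine markers lay between 427 and 605 in WT and between 870 and 1635 in cKO. Of the 6, 2 were higher at an unadjusted p under 0.05, beside 11.9% of all genes tested, and *Tfap2a* had a log2 fold change of -0.56. In the other direction, 10 myeloid markers summed to between 1108 and 2349 in WT and between 669 and 877 in cKO. Of the 10, 5 were lower at an unadjusted p under 0.05, beside 6.45% of all genes tested. The 8 T cell markers summed to between 623 and 1751 in WT and between 151 and 372 in cKO. Of the 8, 7 were lower at an unadjusted p under 0.05, beside 6.45% of all genes tested. No marker of these 4 lists was listed at 0 in any library, and none passed an adjusted p under 0.05. The part of these cells in the cone values was not tested.

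**Figure D4:**
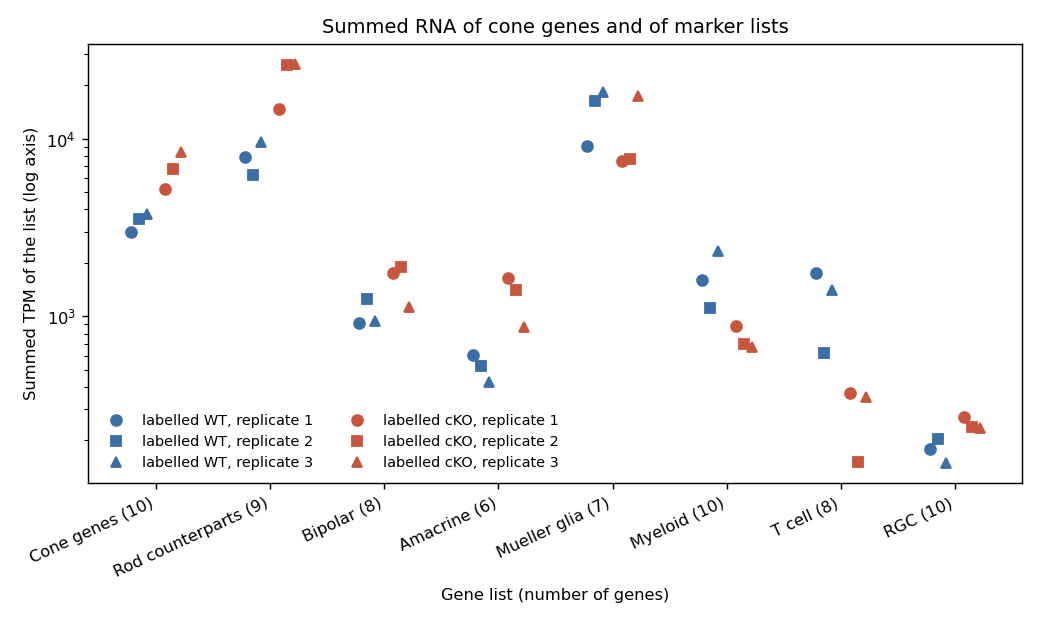
Summed TPM (log axis) of the 10 cone genes, 9 rod counterparts and marker lists of other retinal and immune cells in each library, WT labels in blue and cKO labels in red, with a marker per replicate. Cone and rod sums are higher under the cKO label, T cell and myeloid sums are lower, and Mueller glia sums overlap.

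The genes most like the 10 were sought by Pearson's r, over the 6 libraries, with the mean of the standardised member values. The 5 highest were *Abcc1*, *Gm43371*, *Cdhr1*, *Sv2b* and *Pbx3*, with r between 0.993 and 0.996. *Cdhr1*, a cadherin of photoreceptor outer segments, stood at 143, 137 and 190 TPM in WT and at 268, 409 and 494 TPM in cKO. Of the 17555 genes tested, members included, 749 had an r above 0.9 and 242 an r above 0.95. The 5 were taken as the highest of all genes over only 6 libraries in 2 groups, and r is given as a description.

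Few ATAC-seq regions of the comparison and few WT peaks lay at the ends of the cone genes. A region of the ATAC-seq comparison lay within 1000 bp of an end for 3 of the 10 genes, *Gnat2*, *Gnb3* and *Cngb3*, beside 51.5% of the 15518 genes tested by RNA-seq that have a position. Peaks lay that close to 2 of the 10 genes in WT replicate 1 and 3 in WT replicate 2, beside 65.1% and 58.2% of all those genes. In cKO replicates 1 and 2 it was 0 and 2 of the 10, near the 13.6% and 13.9% of all those genes. The lists held 76522 and 42265 peaks in WT and 55902 and 68317 in cKO, so the cKO lists were not short, but few of their peaks lay at gene ends. No peak of any library lay within 1000 bp of an end of *Opn1mw*, *Pde6c*, *Pde6h*, *Cnga3* or *Arr3*. Of the 9 rod counterparts, none had a region of the comparison at an end.

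The comparison gives group means alone, so no spread between replicates can be stated for a region, and no test was run. At *Gnb3* the region chr6:124839852-124840757 (GRCm38) had 28.2 normalized reads in WT and 9.45 in cKO, as the authors' group means. It spans 1 end of *Gnb3* and lies within 1000 bp of an end of *P3h3*, so it cannot be given to 1 gene, and both WT libraries and neither cKO library had a peak there. At *Gnat2* the region chr3:108085079-108085927 had 23.9 normalized reads in WT and 8.11 in cKO. It lies 861 bp outside the gene as RefSeq draws it but 7139 bp from the annotated start of the promoter printed above, and *Ampd2* and *Gm12500* also end within 1000 bp. At *Cngb3* the region chr4:19510901-19511390 had 6.28 normalized reads in WT and 5.58 in cKO, with a peak in WT replicate 1 and in cKO replicate 2.

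Over all 16600 regions the WT value was above the cKO value in 77.3%, and the medians were 16 normalized reads in WT and 6.36 in cKO. All 3 regions at cone gene ends shared that direction. Inside the genes were 2 further regions. The one in *Pde6c*, chr19:38171929-38172488, went the other way, with log2 normalized reads of 1.26 in WT and 3.17 in cKO and a peak in both cKO libraries and neither WT library. The one in *Cngb3* had 10.6 and 5.70 normalized reads. At *Opn1sw*, the most abundant member, the single peak was in cKO replicate 2 at chr6:29380743-29381040, 230 bp before the annotated start, and no region of the comparison covered it. At *Gngt2* the single peak was in WT replicate 2 at chr11:95845677-95845973, across 1 end of the gene. For both opsins and *Arr3* the higher RNA under the cKO label stood beside no region of the comparison at either end. The same lack held for 7 of the 10 cone genes in all, where 51.5% of all positioned genes tested had a region. A link between RNA and regions was not tested.

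**Figure D5:**
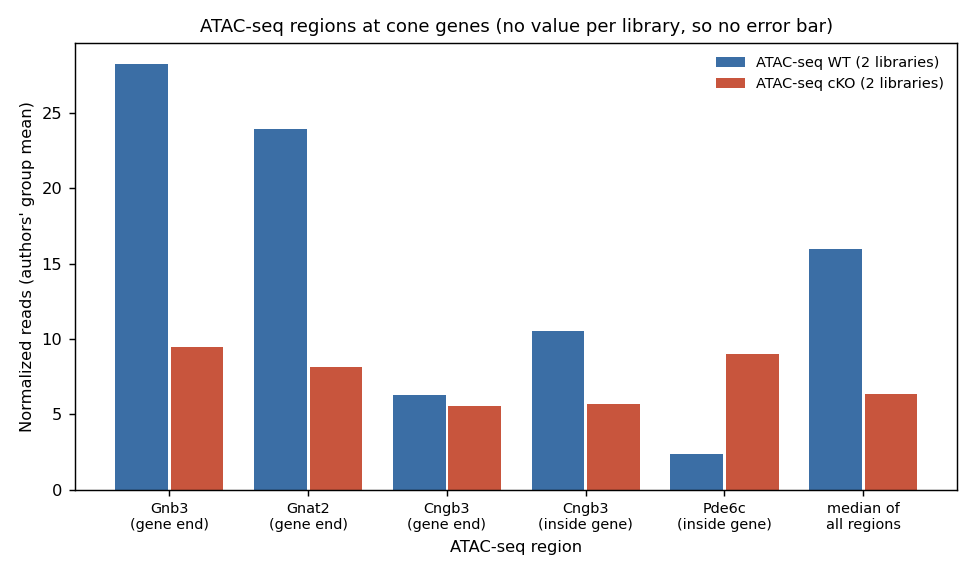
Normalized ATAC-seq reads (authors' group mean of 2 libraries, WT blue and cKO red) in the 5 regions at or inside cone genes and as the median of all regions. The *Gnb3* and *Gnat2* regions stand at 28.2 and 23.9 reads in WT and below 10 in cKO, and the *Pde6c* region is the one with more reads in cKO.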

How the data were processed

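RNA-seq (3 WT and 3 cKO libraries) and ATAC-seq (2 and 2) were grouped by their titles. The authors trimmed reads with Trimmomatic, quantified them with Salmon and summed genes with tximport on GENCODE vM23, and the deposited unit is TPM with no scaling between libraries. TPM keeps no depth, so counting error is unknown. The authors aligned ATAC-seq reads with Bowtie2, and the deposited group values are log2 mean normalized reads from DiffBind. MACS2 is named in the submitters' processing notes (version 2.2.5). Peak lists hold positions on GRCm38. The authors' fold changes, p-values and FDR columns, one RNA-seq file included, were not used.

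Genes with at least 1 TPM in at least 3 libraries were kept, and log2(TPM + 1) was compared with limma 3.58.1 in R 4.3.3 (trended empirical Bayes) with Benjamini-Hochberg adjustment over all 17555 genes at a threshold of 0.05. No count test was possible on TPM. The fold changes understate those of low genes. The fitting script was tested on simulated data. Single values were compared with exact two-sided permutation tests in scipy 1.17.1. Gene positions and promoters are from RefSeq (GRCm38.p6, no strand in the position table, so either gene end counts), and starts were shifted to count from 1.

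Same-numbered libraries had r of 0.334, 0.101 and 0.425 between their deviations across genes. For differently numbered libraries r lay between -0.386 and 0.193. The highest of these, WT replicate 1 with cKO replicate 2, exceeded that of the same-numbered replicates 2. The replicate numbers were taken as a possible pairing of the RNA-seq libraries, from the data and not from the labels. The block was fitted to the same values from which the pairing was read. The fit with the replicate number as a block was an alternative beside the pseudocount, filters, scaling, trend, leaving out each library, and other windows for ATAC-seq. Named genes are the 10 cone genes, 9 rod counterparts, *Arid1a*, up to 4 most abundant genes of each other list and the 5 most alike genes, while other markers named were chosen after their values were seen. Members and lists were chosen with earlier results of these data known. One planned item of the lists is not reported here.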

Additional observations from a re-analysis of the deposited data

How the results depend on the processing

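Under 12 alternatives to the RNA-seq fit all 10 cone genes kept a log2 fold change above 0 and none passed an adjusted p under 0.05 (lowest adjusted p = 0.0633, *Arr3* with the replicate block in limma). Of the 10, the number at an unadjusted p under 0.05 was 10 with the replicate block (beside 13.4% of all genes tested) and 6 with no filter on low values (8.49%), and lay between 5 and 9 when libraries were left out in turn (between 5.76% and 13.4%). For all genes, 4 were higher at an adjusted p under 0.05 with no trend in limma, in place of 1, and between 0 and 1 with a library left out. Genes lower numbered 1 with the replicate block, and between 0 and 1 with a library left out. At an unadjusted p under 0.05, 1338 genes were higher after scaling by the median of ratios, in place of 2095, beside 1675 lower in place of 1133. Leaving out a library gave between 976 and 2279 higher and between 699 and 1321 lower. Scaling moved the median of all genes from 0.16 to 0.01 and that of the cone genes from 0.96 to 0.79. The replicate block changed no call of a cone gene at an adjusted p under 0.05, and brought *Pde6c* and *Cnga3* under an unadjusted p of 0.05. With 3000 bp around a gene end, 6 of the 10 cone genes had a peak in WT replicate 1, 2 in cKO replicate 1 and 4 in cKO replicate 2, beside 74.8%, 30.7% and 32.3% of all genes. Over the whole gene body the counts were 5, 2 and 5, beside 80.6%, 52.6% and 54.1%. For ATAC-seq regions no paired fit could be made, since each group has 1 pooled value. The unknown sequencing depth limits what can be said of *Cnga3*.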

Other observations

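Within each label, *Gngt2* stood highest and lowest in much the same libraries as several other genes. Values are given for 3 of them, chosen here after their values were seen. *Gngt1*, the rod gamma subunit, stood at 272, 147 and 157 TPM in WT replicates 1 to 3 and at 459, 660 and 395 TPM in cKO replicates 1 to 3. *Gng13*, a G protein gamma subunit of ON bipolar cells, stood at 34.4, 21.2 and 1.67 TPM in WT and at 49.8, 114 and 11.1 TPM in cKO. The immune signalling adaptor *Fcer1g* stood at 161, 31.4 and 97.3 TPM in WT and at 81.5, 108 and 26.7 TPM in cKO. In all 4 genes WT replicate 1 was the highest of its label, cKO replicate 2 the highest and cKO replicate 3 the lowest of theirs, whereas cKO replicate 3 was the highest for the other 9 cone genes. The same order held for *Cnga1*, *Slc6a9* and *Tyrobp*, among others. How many of all genes share it was not counted, so it is not particular to the genes named.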
